A study of Mus musculus with 6 samples.

Results

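The 4 mature miRNAs mmu-miR-378a-3p, mmu-miR-378a-5p, mmu-miR-511-3p and mmu-miR-511-5p were examined in exosomes of RAW264.7 cells, an established wild-type mouse macrophage line. They were taken by name from the deposited count table, with 1 entry per name, the one with the highest total. Of the 4 names, 3 had an entry, among 598 miRNA names in all, and mmu-miR-511-5p had none and was not analysed here. M0-exo were isolated from the supernatant of untreated cells after 24 h of normal culture and a change to serum-free medium. M2-exo came from cells of the same line that had received IL-4 and IL-13 together, each at 20 ng/mL, for 24 h before the same change of medium. Each group had 3 small RNA libraries, and the labels put every one of them in batch 1. The comparison asks which miRNAs the exosomes of polarized cells carry at another level. The labels do not say that the samples came from separate cultures, so p-values measure only the spread between these samples, which may be technical. In such bulk samples, fewer vesicles carrying a miRNA and less of it per vesicle cannot be told apart.

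miRNAs are cut from hairpin transcripts, and either arm of a hairpin (5p or 3p) can be loaded into an Argonaute protein, where bases 2 to 8, the seed, select the mRNAs that are bound. The hairpin of miR-378a is transcribed with Ppargc1b, which encodes PGC-1β, a coactivator of mitochondrial genes that IL-4 induces in macrophages through STAT6. miR-378a-3p is known as an IL-4-induced miRNA of macrophages that acts on Akt signalling. The hairpin of miR-511 is transcribed with Mrc1, which encodes the mannose receptor CD206, a standard marker of alternatively activated macrophages. The mRNAs of these host genes were not measured in the exosome libraries.

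The mature sequence of mmu-miR-511-3p is shown because its detection differed between the groups, beside those of the 3 miRNAs on the lists linked to macrophage activation that passed the threshold on the fold change and the p-value. They are RefSeq sequences on GRCm38.p6, identical to those deposited, written 5′ to 3′ with the seed in capitals.

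mmu-miR-511-3p: aAUGUGUAgcaaaagacaggau

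mmu-miR-155-5p: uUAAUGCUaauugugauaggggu

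mmu-miR-21a-5p: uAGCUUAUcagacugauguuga

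mmu-miR-223-3p: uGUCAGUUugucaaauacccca

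The 4 seeds differ. mmu-miR-511-3p lies on the plus strand of chromosome 2, from 14261051 to 14261072. Its hairpin, from 14261003 to 14261081, lies in intron 5 of the 29 introns of Mrc1, which is transcribed from the same strand. No other mature miRNA name among the 1679 of the RefSeq table has its seed, and no other entry of the count table has it.

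The libraries were of moderate depth for miRNAs of this abundance. Over the 598 names, replicates 1, 2 and 3 of M0-exo comprised 1453348, 1155464 and 863194 counts, against 937317, 860204 and 969974 for those of M2-exo. The levels and shares of a library given here use these totals. All 638 deposited entries held 2211009, 1736878 and 1305522 counts in M0-exo, against 1448532, 1319411 and 1502589 in M2-exo. Together, let-7 miRNAs and miR-98 took between 74.9% and 77.9% of the counts of a library. A count of 0 allows up to 3 counts, which is 2.06, 2.60 and 3.48 CPM (counts per 1000000 counts) for M0-exo and 3.20, 3.49 and 3.09 CPM for M2-exo. These limits and the intervals given below cover counting error only. M2-exo replicate 3 stood apart from the other libraries in the liver miRNA mmu-miR-122-5p, with 2184 counts against 51 to 137 in each of the others, so values without it are given for both arms of miR-378a.

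mmu-miR-378a-3p was slightly more abundant in M2-exo than in M0-exo, by less than the fold change required for a call. Its hairpin lies on the minus strand of chromosome 18 (GRCm38, 61397835 to 61397900), in intron 1 of Ppargc1b on the same strand. The counts of mmu-miR-378a-3p were 461, 422 and 244 in M0-exo replicates 1, 2 and 3, against 314, 364 and 304 in the M2-exo replicates. Scaled by TMM, a normalization to the miRNAs that most libraries share, these were 295, 337 and 262 CPM in M0-exo against 368, 436 and 348 CPM in M2-exo. M2-exo replicate 2 was the highest library and M0-exo replicate 3 the lowest, and the lowest M2-exo library was above the highest M0-exo library. The means were 298 ± 37.4 and 384 ± 46.5 CPM (SD, n = 3 each). In edgeR's quasi-likelihood test over the 598 miRNAs the fold change was 1.29 (95% interval 1.02 to 1.62), or 0.36 ± 0.17 on the log2 scale (SE). The variance in this test was pooled over miRNAs, so its p-values, SE and intervals do not reflect the scatter of each miRNA by itself. The unadjusted edgeR value was p = 0.0323 (Benjamini-Hochberg adjusted p = 0.242), and a two-sided exact permutation test of the scaled CPM gave p = 0.10, the smallest value that 3 against 3 samples allow.

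A miRNA was called where its log2 fold change was 0.5 or more in either direction with an unadjusted p below 0.05. By this rule 60 of the 598 miRNAs were called (10%), 22 higher (3.68%) and 38 lower (6.35%) in M2-exo. None of the 3 measured members was called in either direction. At an adjusted p below 0.05 without a threshold on the fold change, 53 miRNAs passed (8.86%) and again none of the 3 members. The ranges of the scaled CPM of the groups did not overlap for 114 miRNAs (19.1%), and for 2 of the 3 members, mmu-miR-378a-3p and mmu-miR-511-3p. Chance gives 10% for 3 against 3 libraries without ties, and less for miRNAs at 0 in several libraries.

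The separation of the groups for mmu-miR-378a-3p depended on the scaling. Before TMM scaling its level was 317, 365 and 283 CPM in M0-exo against 335, 423 and 313 CPM in M2-exo, so that the groups overlapped. With no scaling beyond the library total its log2 fold change was 0.15 (edgeR, adjusted p = 0.650, within a range of 0.108 to 0.746 over the alternatives), while the median of all miRNAs moved by -0.20. Relative to that median the log2 fold change of mmu-miR-378a-3p was 0.34 with TMM and 0.33 without scaling. Without M2-exo replicate 2 it was 0.26 (edgeR, adjusted p = 0.746), and without M0-exo replicate 3 it was 0.28 (adjusted p = 0.615).

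mmu-miR-378a-5p, the less abundant arm of the same hairpin, was high in 1 library. Its counts were 49, 38 and 21 in M0-exo against 29, 68 and 25 in M2-exo, or 31.4, 30.3 and 22.6 against 33.9, 81.5 and 28.6 CPM after TMM scaling. M2-exo replicate 2 held 2.61 times the mean of the other M2-exo libraries, which lay close to the M0-exo libraries, and the groups overlapped. The means were 28.1 ± 4.81 and 48.0 ± 29.1 CPM (SD, n = 3 each). The fold change was 1.70 (95% interval 0.909 to 3.18), with a log2 fold change of 0.76 ± 0.46 (SE, edgeR, p = 0.0968, adjusted p = 0.452), and the exact permutation test gave p = 0.30. Without M2-exo replicate 2 the log2 fold change was 0.14 (edgeR, adjusted p = 0.976), and without M2-exo replicate 3 it was 1.03 (adjusted p = 0.344), which passed the rule for a call, with adjusted p from 0.285 to 0.976 over the alternatives.

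**Figure D1:**
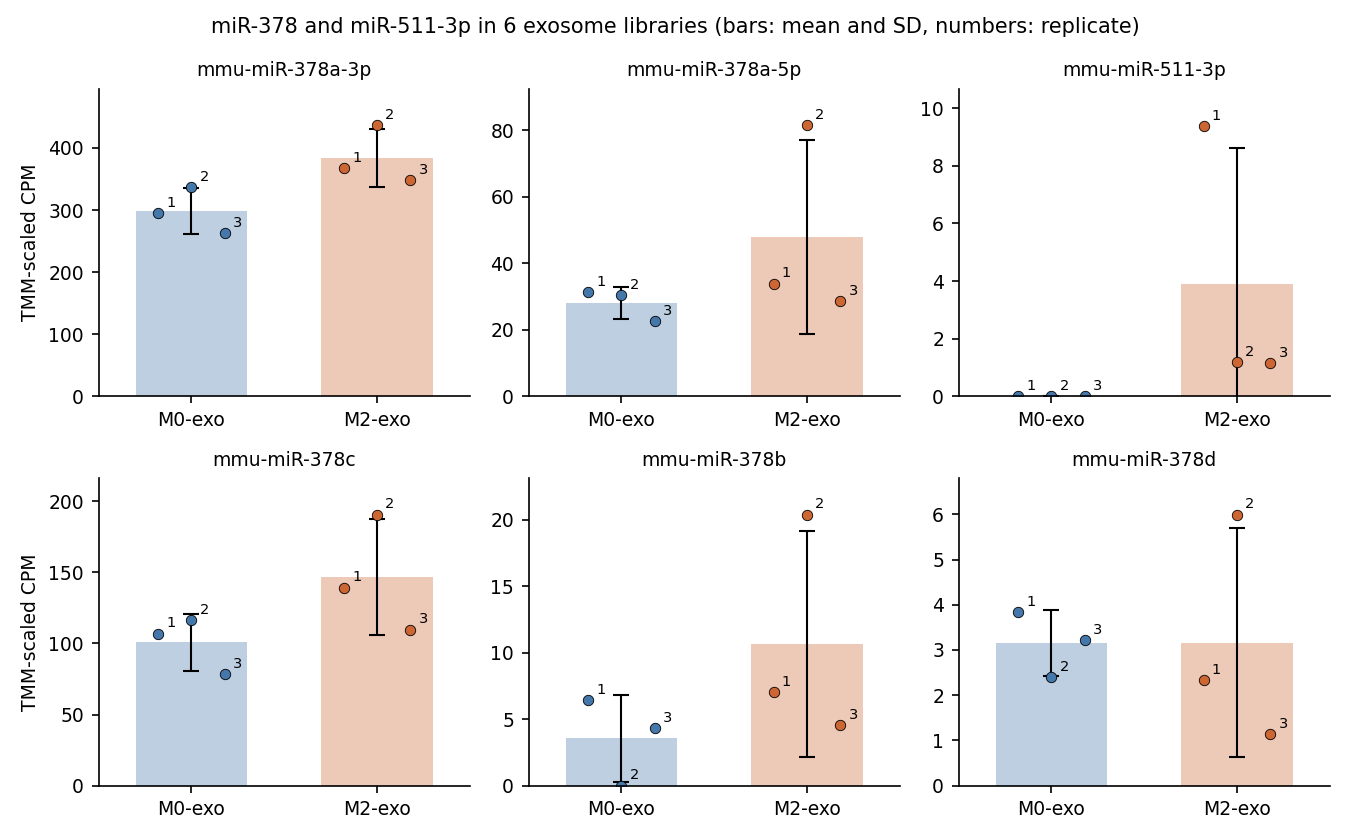
TMM-scaled CPM of mmu-miR-378a-3p, mmu-miR-378a-5p, mmu-miR-511-3p and the other miR-378 entries in the 3 M0-exo (blue) and 3 M2-exo (orange) libraries, numbered by replicate; bars and whiskers are the mean and SD, each panel with its own axis from 0. M2-exo replicate 2 is the highest library in all 5 miR-378 panels, and mmu-miR-511-3p is above 0 in the M2-exo libraries only.

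mmu-miR-378a-3p was the dominant arm in every library. The 5p arm took 9.61%, 8.26% and 7.92% of the counts of both arms in M0-exo replicates 1, 2 and 3, with 95% Wilson intervals of 7.34% to 12.5%, 6.08% to 11.1% and 5.24% to 11.8%. In the M2-exo libraries it took 8.45% (5.95% to 11.9%), 15.7% (12.6% to 19.5%) and 7.60% (5.20% to 11%). M2-exo replicate 2 again stood above the other 5 libraries, whose intervals overlap each other. The 3p share was 91.4% ± 0.891 in M0-exo and 89.4% ± 4.47 in M2-exo (SD, n = 3 each), and a two-sided exact permutation test gave p = 0.80. The direction of this difference rested on that library, since the M2-exo mean minus the M0-exo mean was -2.0 percentage points with it and 0.57 without it.

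Among the 88 hairpins with both arms in the table, a share in every library and at least 20 counts in all, the more abundant arm took a median of 93.9% of the counts, against 90.2% for miR-378a. The absolute difference in 3p share between the groups had a median of 1.95 percentage points, and 43 of the 88 hairpins had a larger one than miR-378a. The shares of the arms of miR-511 could not be computed, as mmu-miR-511-5p had no entry.

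**Figure D2:**
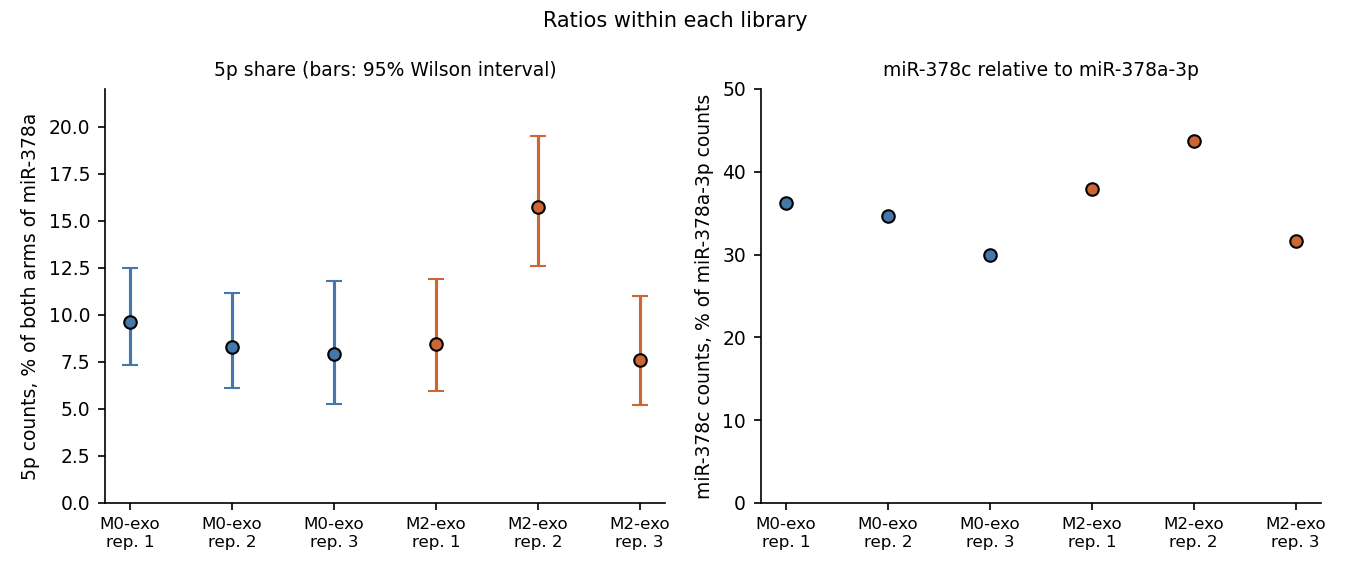
Share of the 5p arm among the counts of both arms of miR-378a (left, in percent, with 95% Wilson intervals) and counts of mmu-miR-378c in percent of those of mmu-miR-378a-3p (right) in each M0-exo (blue) and M2-exo (orange) library. M2-exo replicate 2 is the highest library in both, with 15.7% and 43.7%.

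The count table held 3 further members of the miR-378 family, encoded at other hairpins and nearly identical in sequence to mmu-miR-378a-3p. mmu-miR-378c matched it at 20 of 21 aligned bases and differed at the last, so that both share their seed, and it was the sole other entry with that seed. mmu-miR-378b began 1 base later and matched at 19 of 20 aligned bases, and mmu-miR-378d matched at 20 of 21, with the difference at base 6, inside the seed. How reads that fit more than 1 of these entries were counted is not given in the sources used here, so the split of counts among them is uncertain.

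mmu-miR-378c was the only member of the miR-378 family that was called. Its counts were 167, 146 and 73 in M0-exo against 119, 159 and 96 in M2-exo, or 107, 117 and 78.5 against 139, 191 and 110 CPM after TMM scaling. M2-exo replicate 2 was the highest library and M2-exo replicate 3 lay within the M0-exo range. The means were 101 ± 19.8 and 147 ± 40.9 CPM (SD, n = 3 each), with a log2 fold change of 0.54 ± 0.25 (SE). The unadjusted edgeR value was p = 0.0309 (adjusted p = 0.237), and the two-sided exact permutation test gave p = 0.20. The call was lost without scaling (0.33), without M0-exo replicate 3 (0.39) and without M2-exo replicate 2 (0.30). With the DESeq2 Wald test the log2 fold change was 0.52, and the call was lost through an unadjusted p = 0.103. The adjusted p ranged from 0.118 to 0.746 over the alternatives.

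The remaining members of the family were rare. The counts of mmu-miR-378b were 10, 0 and 4 in M0-exo against 6, 17 and 4 in M2-exo, with a log2 fold change of 1.54 ± 1.45 (SE, edgeR, adjusted p = 0.549) that ranged from 0.66 to 2.31 with 1 library left out. Those of mmu-miR-378d were 6, 3 and 3 in M0-exo against 2, 5 and 1 in M2-exo, with a log2 fold change of -0.0013 ± 2.33 (SE, edgeR, adjusted p = 1.00) whose sign differed between alternatives. Neither could be told apart between the groups at this depth. In scaled CPM, M2-exo replicate 2 was the highest library for both.

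Within a library, the counts of mmu-miR-378c were 36.2%, 34.6% and 29.9% of those of mmu-miR-378a-3p in M0-exo, against 37.9%, 43.7% and 31.6% in M2-exo. The groups overlapped, with means of 33.6% ± 3.27 and 37.7% ± 6.05 (SD, n = 3 each) and p = 0.40 in a two-sided exact permutation test. Summed over the 4 entries from mmu-miR-378a-3p to mmu-miR-378d, the scaled level was 412, 456 and 348 CPM in M0-exo against 516, 653 and 463 CPM in M2-exo. The lowest M2-exo library was then just above the highest M0-exo library, and before TMM scaling the groups overlapped. As 1 summed row, chosen after seeing the data, the family had a log2 fold change of 0.43 (edgeR, adjusted p = 0.0583), below the 0.5 required for a call.

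M2-exo replicate 2 was not the highest library for miRNAs in general. Of the 241 miRNAs with a mean of at least 10 counts, it was the highest library for 33 (13.7%). Its scaled CPM was a median of 0.990 times the mean of the other M2-exo libraries over these miRNAs. The ratio was 1.22 for mmu-miR-378a-3p (rank 47 of 241), 1.53 for mmu-miR-378c (rank 22) and 2.61 for mmu-miR-378a-5p (rank 4). What set this library apart for the miR-378 entries was not tested.

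**Figure D3:**
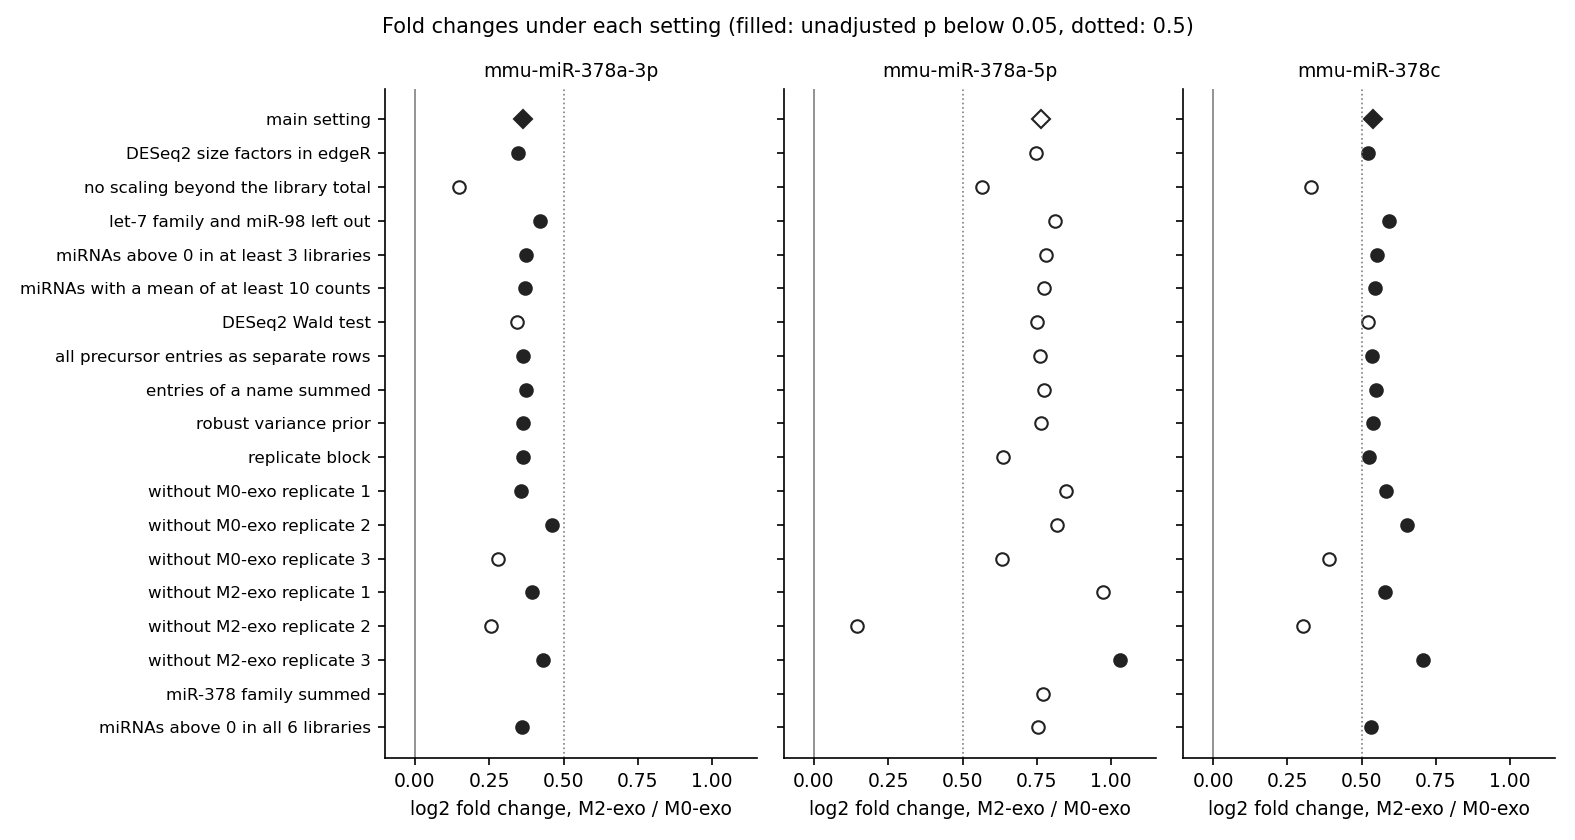
Log2 fold change (M2-exo over M0-exo) of mmu-miR-378a-3p, mmu-miR-378a-5p and mmu-miR-378c under the main setting (diamond) and each of its own alternatives (circles), filled where the unadjusted p was below 0.05; the dotted line is at 0.5. All values are above 0; those of mmu-miR-378a-3p lie between 0.15 and 0.46, and mmu-miR-378a-5p drops to 0.14 without M2-exo replicate 2.

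mmu-miR-511-3p was detected in the M2-exo libraries only, at very low counts. No count of it was found in the M0-exo libraries (0, 0 and 0), against 8, 1 and 1 counts in M2-exo replicates 1, 2 and 3, which is 8.53, 1.16 and 1.03 CPM before scaling. M2-exo replicate 1 held 80% of its counts, and the others were below the limit of 3 counts. The mean in M2-exo was 3.58 ± 4.29 CPM (SD, n = 3), or 1.32 times the mean M0-exo limit of 2.71 CPM for a count of 0 per library. This ratio leaves out the counting error of M2-exo, whose interval given below reaches under 2.71 CPM, so it is not a lower bound. Without M2-exo replicate 1 both groups were at or under 3 counts, and no fold is given. The edgeR test gave p = 0.0878 with an adjusted p = 0.438, and the two-sided exact permutation test of the scaled CPM gave p = 0.10, the smallest possible. Summed over libraries, there were 10 counts among 2767495 in M2-exo, or 3.61 CPM with an exact 95% Poisson interval of 1.73 to 6.65 CPM, and 0 among 3472006 in M0-exo.

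The same pattern, 0 in each M0-exo library and above 0 in each M2-exo library, was found for 4 of the 598 miRNAs, and its reverse for 3. The other members with mmu-miR-511-3p, named after their values were seen, were mmu-miR-330-5p (13, 3 and 2 counts), mmu-miR-20b-5p (1, 1 and 6) and mmu-miR-26b-3p (1, 5 and 1). Of the 4, only mmu-miR-330-5p was called higher (edgeR, unadjusted p = 0.0266). Single counts were more frequent in the M2-exo libraries, where 41, 27 and 32 miRNAs stood at exactly 1 count, against 6, 8 and 7 in the M0-exo libraries. The counts of 1 of mmu-miR-511-3p in M2-exo replicates 2 and 3 belong to this class. The part of this difference between the groups in the detection of mmu-miR-511-3p was not tested. Among the 11 miRNAs with the same total of 10 counts, the next in order were mmu-miR-429-3p (9, 0 and 0 counts in M0-exo against 0, 0 and 1 in M2-exo) and mmu-miR-6412 (0, 9 and 0 against 0, 1 and 0), each likewise concentrated in 1 library.

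mmu-miR-378a-3p ranked 76th of the 598 miRNAs by total count, with 2109 counts, and took between 0.0283% and 0.0423% of a library. Its neighbours in that order were mmu-miR-351-3p, which was lower in M2-exo by a log2 fold change of -1.13 (edgeR, adjusted p = 4.0e-09), and mmu-miR-324-5p at 0.30 (adjusted p = 0.431). A change of the size of that of mmu-miR-351-3p was therefore detectable at the depth of mmu-miR-378a-3p. mmu-miR-378a-5p had 230 counts, between mmu-miR-1943-5p (log2 fold change -0.26, edgeR adjusted p = 0.816) and mmu-miR-6981-5p (-0.88, adjusted p = 0.422), none of which was called in the main setting.

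Over the 6 libraries, the log2 scaled CPM (with 1 added) of mmu-miR-378a-3p was most like those of mmu-miR-30e-3p (Pearson's r = 0.979), mmu-miR-378c (0.962) and mmu-miR-130b-3p (0.958), out of 240 other miRNAs with a mean of at least 10 counts. Those most like mmu-miR-378a-5p were mmu-miR-378c (0.925), mmu-miR-378a-3p (0.853) and mmu-miR-532-3p (0.852). These values describe the same 6 libraries and share their group difference and scaling. The log2 fold changes of mmu-miR-30e-3p, mmu-miR-130b-3p and mmu-miR-532-3p were 0.16, 0.28 and 0.19, and those of the first and the last were below 0 without scaling (-0.057 and -0.016).

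The 4 examined miRNAs belong to a list of 14 miRNAs linked in the literature to IL-4 or alternative activation of macrophages, of which 11 were measured. Of these, 2 were called higher, 0 lower and 9 not called, against 3.68% higher and 6.35% lower over all 598 miRNAs. Among the 11, 9 had a mean of at least 10 counts. With only the 241 miRNAs of such a mean tested, 50 were called (17 higher and 33 lower). The median log2 fold change of the 11 was 0.36, that of mmu-miR-378a-3p itself, against 0.026 over all 598 miRNAs. With miRNAs at 0 in a group set at their bound, the medians were 0.36 for the list and -0.15 over the 442 miRNAs with a value. mmu-miR-223-3p, a myeloid miRNA, did not overlap between the groups after scaling and rose by a log2 fold change of 1.60 ± 0.58 (SE, edgeR, adjusted p = 0.0582). mmu-miR-21a-5p, abundant in activated macrophages, rose by 0.55 ± 0.18 (SE, edgeR, adjusted p = 0.0258), while its groups overlapped. Its call was lost without scaling (0.33), without M0-exo replicate 3 (0.32) and without M2-exo replicate 3 (0.47). Its adjusted p ranged from 0.00026 to 0.584 over the alternatives, and was 0.188 in the DESeq2 Wald test. Without M0-exo replicate 1 its log2 fold change was 0.85. mmu-miR-27a-3p (0.48), mmu-miR-34a-5p (0.34), mmu-let-7c-5p (0.30) and mmu-miR-125a-5p (0.24) lay near mmu-miR-378a-3p in log2 fold change, and mmu-miR-146a-5p was at -0.55 (edgeR, adjusted p = 0.492). For mmu-let-7c-5p the adjusted p was 1.3e-06 (edgeR), against 0.391 without scaling. Neither mmu-miR-27a-3p nor mmu-miR-146a-5p overlapped between the groups, and in some alternatives they were called, mmu-miR-27a-3p higher in 3 and mmu-miR-146a-5p lower without scaling (-0.77). miR-124-3p and miR-193b-3p had no entry, and mmu-miR-132-3p had at most 8 counts in a library.

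Of 7 miRNAs linked to classical activation by LPS or interferon, 5 were measured, 1 was called lower (6.35% over all 598 miRNAs) and 4 were not called. Their median log2 fold change was 0.38. mmu-miR-155-5p, the best known of them, was counted 1312, 898 and 657 times in M0-exo against 301, 334 and 307 times in M2-exo. After scaling it was 755 ± 74.2 CPM in M0-exo against 368 ± 28.1 CPM in M2-exo (SD, n = 3 each), and its log2 level fell by 1.04 ± 0.15 (-1.04, SE, edgeR, adjusted p = 1.8e-10). mmu-miR-125b-5p (0.39) and mmu-miR-146b-5p (0.38) had log2 fold changes close to the 0.36 of mmu-miR-378a-3p. Their adjusted p were 0.0226 and 0.493 (edgeR), and that of mmu-miR-125b-5p was 0.533 without scaling. mmu-miR-127-3p was at -0.030, with a sign that differed between alternatives. The fold change of mmu-miR-378a-3p lay among those of miRNAs of both lists.

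**Figure D4:**
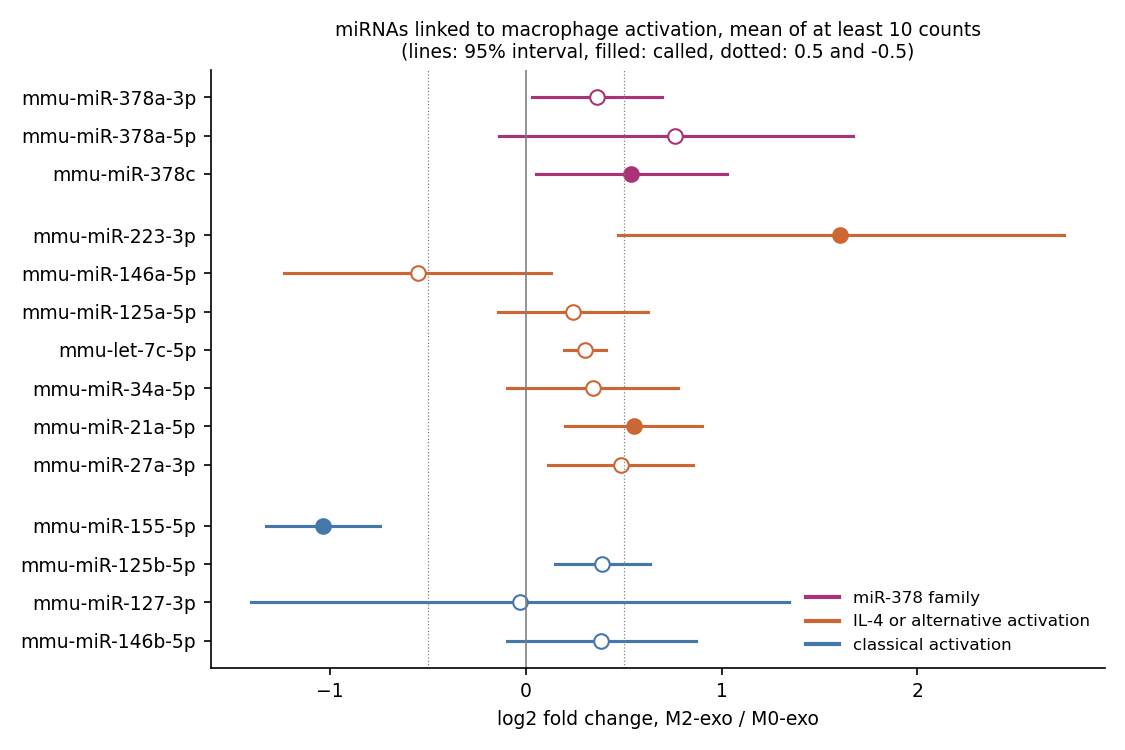
Log2 fold change (M2-exo over M0-exo) with its 95% interval for mmu-miR-378a-3p, mmu-miR-378a-5p and mmu-miR-378c (purple) and for other miRNAs of the lists linked to IL-4 (orange) and classical activation (blue) with a mean of at least 10 counts; filled points were called and dotted lines are at 0.5 and -0.5. The intervals of mmu-miR-378a-3p and mmu-miR-378c lie just above 0 at their lower ends (0.031 and 0.050), and mmu-miR-155-5p lies at -1.04.

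Other intronic miRNAs with well-known hosts were set beside miR-378a and miR-511. Of 31 such arms, 25 were measured, 4 were called higher and 4 lower, against 3.68% and 6.35% of all 598 miRNAs. The median log2 fold change of the 25 was 0.040, also with miRNAs at 0 in a group set at their bound (23 with a value). The lower ones were mmu-miR-326-5p (-1.36, host Arrb1), mmu-miR-342-5p (-0.82, Evl), mmu-miR-139-3p (-0.76, Pde2a) and mmu-miR-25-5p (-0.62, Mcm7). Of the higher ones, mmu-miR-15b-5p (0.54) has the host Smc4, and mmu-miR-16-5p (0.60) comes from 2 hairpins, 1 in Smc4 and 1 in Dleu2, whose parts in its level cannot be told apart. Both lost the call without scaling (0.32 and 0.38), mmu-miR-15b-5p also without M2-exo replicate 3 (0.49). The others were mmu-miR-15b-3p, with at most 2 counts in an M0-exo library, and mmu-miR-126a-5p (1.63, edgeR, adjusted p = 0.343), whose call was lost in 11 of its 18 alternatives, with log2 fold changes from 1.29 to 1.85, while leaving out M0-exo replicate 1 gave 2.54. The losses were under no scaling, DESeq2 size factors, DESeq2, both planned filters on low counts, entries of a name summed, the replicate block, and leaving out replicate 2 or 3 of either group.

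Marker miRNAs of the cells and fluids that an exosome preparation could hold were read beside these results. For each of these lists, the shares over all 598 miRNAs were 3.68% called higher and 6.35% called lower. The myeloid list (7 of 7 measured, 2 called higher and 1 lower, median log2 fold change 0.45, or 0.40 with mmu-miR-511-3p at its bound) summed to 1839, 1413 and 1353 scaled CPM in M0-exo against 1283, 1426 and 1560 in M2-exo. Its most abundant member was mmu-miR-155-5p in each M0-exo library and mmu-miR-142a-3p in each M2-exo library. mmu-miR-142a-3p, found throughout blood cells, was at 394 ± 81.9 CPM in M0-exo against 539 ± 105 CPM in M2-exo (SD, n = 3 each). The groups overlapped, and its log2 fold change of 0.45 (edgeR, adjusted p = 0.0408) was not called. It was called higher without M0-exo replicate 1 (0.64) and without M2-exo replicate 1 (0.58), and was at 0.23 without scaling (edgeR, adjusted p = 0.533). Of that list, mmu-miR-511-3p was the only miRNA at 0 in any of the 6 libraries.

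Muscle and brown fat are tissues where miR-378a is also abundant. Of 7 miRNAs that mark them, 2 were measured and 0 called by edgeR's test (median log2 fold change 0.071). The summed level was 80.7, 59.9 and 45.2 scaled CPM in M0-exo against 63.2, 58.7 and 86.9 in M2-exo, mostly from mmu-miR-365-3p. miR-133a-3p, miR-206-3p, miR-208a-3p, miR-499-5p and miR-193b-3p had no entry, and mmu-miR-1a-3p was at 0 in 3 of the 6 libraries.

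The marker lists of red cells and serum, of liver and of stromal cells summed to a higher level in each M2-exo library than in each M0-exo library, a separation also seen for mmu-miR-378a-3p. The list for red cells and serum (3 of 4 measured, 1 called higher, median log2 fold change 0.60) summed to 14017, 13152 and 13821 scaled CPM in M0-exo against 19241, 19926 and 22796 in M2-exo, almost wholly through mmu-miR-16-5p. Without mmu-miR-16-5p the groups overlapped, at 55.1, 110 and 90.3 CPM in M0-exo against 129, 70.7 and 115 CPM in M2-exo. mmu-miR-451a, specific to red cells, had at most 14 counts in a library. The liver list (3 of 3 measured, 1 called higher) summed to 40.3, 47.1 and 58.1 CPM in M0-exo against 169, 128 and 2502 CPM in M2-exo, with mmu-miR-122-5p as the most abundant. The stromal list (3 of 5 measured, 1 called higher) summed to 19.8, 18.4 and 23.7 CPM in M0-exo against 43.3, 34.8 and 74.3 CPM in M2-exo. Most of it was mmu-miR-143-3p, which was not called and overlapped between the groups, and the miRNA called higher was mmu-miR-199a-3p, with 1, 0 and 0 counts in M0-exo against 7, 7 and 19 in M2-exo. For the liver and stromal lists no median is given, as 2 of the 3 measured miRNAs of each had at most 3 counts in every M0-exo library. The highest library of all 3 lists was M2-exo replicate 3, and that of mmu-miR-378a-3p was M2-exo replicate 2. The part of these sources in the level of mmu-miR-378a-3p was not tested. Without M2-exo replicate 3 its log2 fold change was 0.43 (edgeR, adjusted p = 0.164).

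The lists for neurons (2 of 3 measured, 0 called, median log2 fold change 0.091) and for T and B cells (2 of 2 measured, 0 called, median 0.010) overlapped between the groups. The neuronal list summed to 39.1, 37.5 and 55.9 scaled CPM in M0-exo against 24.6, 42.0 and 24.0 in M2-exo, chiefly mmu-miR-128-3p, and that for T and B cells to 1156, 1268 and 1173 in M0-exo against 1208, 1166 and 1339 in M2-exo, chiefly mmu-miR-181a-5p.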

How the data were processed

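Small RNA libraries of exosomes from RAW264.7 cells were read from 1 table. The authors deposited raw counts per mature miRNA and precursor (638 entries), and RPM values, which were checked to equal each deposited count per 1000000 counts over all entries. The submitters' processing notes list the build mm39. The aligner and counting tool are not given in the sources used here. Coordinates given here are on GRCm38 (GENCODE M21 and RefSeq), not on the authors' build. Where a name had several entries, that with the largest total was used, which gave 598 names. Groups followed the labels. Counts were compared with edgeR 4.0.16 in R 4.3.3 (TMM, quasi-likelihood test, no filter, no covariates) with Benjamini-Hochberg adjusted p over all names, and with DESeq2 1.42.0 as an alternative. edgeR estimated infinite prior degrees of freedom, so its variances were pooled over miRNAs and not weighted by each miRNA's own spread between libraries. Exact tests and intervals were computed with scipy 1.17.1 in Python 3.11.15, and figures with matplotlib 3.10.9. The edgeR fit was tested on simulated counts whose changes were larger than those of the miR-378 entries, and not for changes as small as theirs. Named miRNAs were the 4 examined, their family and seed mates, the activation, intronic and marker lists, the 3 most alike in pattern, the neighbours by total count, and those with the detection pattern of mmu-miR-511-3p. The members and lists were chosen with earlier results of these data known. Alternatives covered scaling, filters, tool, entries, variance prior, replicate block, thresholds and each library left out.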

Additional observations from a re-analysis of the deposited data

How the results depend on the processing

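The log2 fold changes of mmu-miR-378a-3p (0.15 to 0.46) and mmu-miR-378a-5p (0.14 to 1.03) were above 0 under each of their 17 and 18 alternatives. mmu-miR-378a-3p was not called under any, and mmu-miR-378a-5p was called in 1, with leave-one-out values from 0.14 without M2-exo replicate 2 to 1.03 without M2-exo replicate 3. mmu-miR-511-3p, whose fitted value depends on the prior count, was called with miRNAs above 0 in at least 3 libraries (5.10, edgeR adjusted p = 0.204, within a range of 0.204 to 0.965), a filter it met only through its M2-exo counts, so that this call supports no difference; it was not tested under either filter it failed (a mean of at least 10 counts, or a count in all 6 libraries), and DESeq2 gave it no adjusted p. The difference in the 3p share of miR-378a ranged from -3.50 to 0.57 percentage points with 1 library left out. The count of called miRNAs fell from 60 to 27 (7 higher and 20 lower) when the fold change had to be 1 or more on the log2 scale, a stricter threshold, and was 73 (10 higher and 63 lower) without scaling. Signs also changed for mmu-miR-378d (0.041 without the let-7 family and miR-98, 0.015 with miRNAs above 0 in at least 3 libraries, 0.0046 with entries summed, -0.82 to 0.39 with 1 library left out), mmu-miR-127-3p (0.026 without the let-7 family and miR-98, -0.36 to 0.30 with 1 library left out), mmu-miR-30e-3p (-0.057) and mmu-miR-532-3p (-0.016) without scaling, and, with 1 library left out, mmu-miR-532-3p (-0.067 to 0.42) and mmu-miR-1943-5p (-0.58 to 0.10); the cause was not tested. The miR-378 family summed as 1 row (0.43), which is not a value of mmu-miR-378a-3p and not among its 17, and the filter on a count in all 6 libraries were chosen after seeing the data. With a replicate block, 56 miRNAs were called (21 higher and 35 lower), and the log2 fold changes were 0.36 for mmu-miR-378a-3p, 0.64 for mmu-miR-378a-5p and 4.73 for mmu-miR-511-3p, none of them called. Deviations of samples sharing a number correlated at -0.043, 0.016 and -0.046 over 241 miRNAs. No pairing by number was seen, but counting error could hide a weak one. Of the 3 measured members and the miR-378 family, mmu-miR-511-3p, mmu-miR-378b and mmu-miR-378d had the fewest counts.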
